A study of Xenopus tropicalis with 6 samples.

Results

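The genes described here make, remove, carry or sense retinoic acid, and they were chosen by symbol from the retinoid pathway. Of 9 listed names, 8 had a row in the deposited expression table, which pairs gene identifiers with symbols. These were the synthesis enzymes *aldh1a2* (gene1220) and *aldh1a3* (gene24680), the breakdown enzymes *cyp26a1* (gene1748), *cyp26b1* (gene5360) and *cyp26c1* (gene16742), the carrier *crabp2* (gene3910), and the receptors *rara* (gene27969) and *rarb* (gene25802). No row carried the symbol *rarg*, the gene of a further retinoic acid receptor, and it was not analysed here. All 8 were among the 15076 genes with a level above 1 cpm (a count after scaling all libraries to equal size) in 3 or more libraries, of 34229 gene models in all. The deposited expression table has 15079 lines, about as many as these genes, so a member with a row was all but bound to pass. A symbol without a row can be missing through its name or through a low level. The choice was by name, made with earlier results of these data known, and it left out the retinol carrier gene *rbp4*.

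RNA was sequenced from dissected brains of wild-type *Xenopus tropicalis* tadpoles at stage 46, in 3 *dyrk1a* CRISPR and 3 control libraries of 3 pooled brains each. CRISPR tadpoles had received Cas9 and a guide RNA against *dyrk1a*, a protein kinase gene, in both blastomeres, and by the study's methods the most mutagenized animals were kept. Controls were uninjected, so the effects of injection and of *dyrk1a* loss cannot be told apart. A library averages over all cells of 3 brains, which in the CRISPR group are mosaic for the mutation. Fewer cells of a type and less RNA per cell cannot be told apart in a library.

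Retinoic acid is made from vitamin A inside cells. Retinol is first oxidized to retinal, and Aldh1a enzymes then oxidize retinal to retinoic acid, which Cyp26 enzymes of the cytochrome P450 family break down. Cells that synthesize and cells that degrade it lie side by side in the embryo and so set up gradients. In the nucleus, retinoic acid binds receptors of the Rar family, which sit on DNA as pairs with Rxr proteins and switch on targets that include Hox genes. The pathway is known for patterning the hindbrain, the border of the spinal cord and the eye.

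Gene counts summed to between 9603583 (control replicate 3) and 35071943 (control replicate 1) per library, and 1 read was worth between 0.0291 and 0.106 cpm. Per-library values stand in the order of replicates 1, 2 and 3 throughout, CRISPR before control. For the targeted gene, *dyrk1a*, CRISPR libraries gave 16.8, 13.2 and 15.01 cpm and controls 21.4, 10.8 and 14.8 cpm. Its log2 fold change of -0.07 (SE 0.24) did not pass (adjusted p = 0.936 from edgeR), and that of a further row named *dyrk1a.2* was 0.02. Small insertions and deletions need not alter a count. From reads of these libraries, the study reports lost depth beside the guide's target site in every injected replicate and in no control. All 17 telencephalon markers were expressed, at sums of 1309 to 1406 cpm in CRISPR and 1226 to 1356 cpm in control libraries. The sum of 12 skeletal muscle markers of 16 listed ran from 22.8 to 34.6 cpm in CRISPR libraries and from 64.8 to 189.5 cpm in controls, highest in control replicate 2. The 14 gene models of the choroid plexus list, led by *rbp4* and *otx2*, summed to 799 to 1224 cpm against 472 to 617 cpm, and *ttr* had no row. Without *rbp4* the other 13, of which 9 had a positive and 4 a negative log2 fold change, summed to 266 to 332 cpm against 225 to 271 cpm, and the ranges overlapped. Endothelial markers summed to 319 to 373 cpm in CRISPR and 306 to 343 cpm in control libraries. Epidermal markers, led by *krt8.1* and *krt18.1*, summed to 625 to 895 cpm against 508 to 571 cpm. Of the 8 epidermal gene models tested, 4 had a positive and 4 a negative log2 fold change. Of the microglia and blood list, the globin and haem genes overlapped between the groups, while *csf1r*, *spi1*, *ptprc* and *tyrobp*, white cell genes named after their values were seen, summed to 26.0 to 32.7 cpm against 15.8 to 21.2 cpm. Of these, *csf1r* had a log2 fold change of 1.03 (adjusted p = 0.0931 by edgeR and 0.000171 by DESeq2). The part of these cell types in the results that follow was not tested.

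None of the 8 retinoic acid genes passed the test between *dyrk1a* CRISPR and control brains (edgeR quasi-likelihood test, adjusted p under 0.05), in a comparison where 0.00663% of all genes tested did. DESeq2 also called 0 of the 8, against 2.04% of the genes to which it gave an adjusted p. The log2 fold changes ran from -0.56 for *cyp26a1* to 0.28 for *cyp26b1*, and 7 of 8 were negative. Their median was -0.20, beside 0.01 over all genes tested. At an unadjusted p under 0.05, 2 of 8 were lower, *rarb* and *cyp26a1*, where 6.14% of all genes were lower, and 0 of 8 were higher, where 6.79% were. For the same pair all CRISPR libraries lay below all controls, as they did for 9.72% of genes. For 0 of 8 did they lie above, beside 9.13%. With 8 genes these shares rest on very few genes, and the count of 2 became 0 without control replicate 2 and 3 without control replicate 1. The 95% interval of the log2 fold change stayed between -1 and 1 for 7 of the 8, with *cyp26a1* beyond it.

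**Figure D1:**
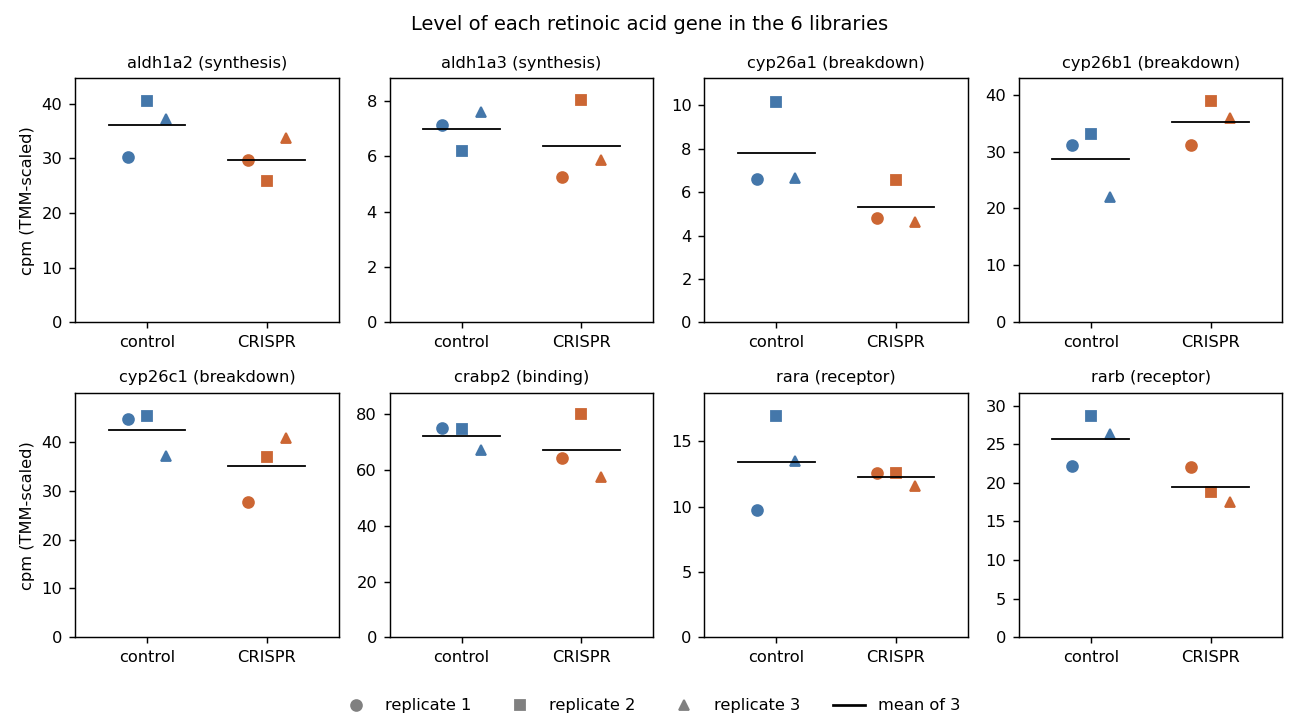
Level of each of the 8 retinoic acid genes in cpm on TMM-scaled library sizes (vertical axis, from 0) in the 3 control and 3 *dyrk1a* CRISPR libraries, 1 point per library with its replicate number as symbol and a line at the mean of each group. Control replicate 2 is the highest point in 5 of the 8 panels, and *rarb* and *cyp26a1* are the panels without overlap.

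*aldh1a2* encodes the main retinoic acid-synthesizing enzyme of the vertebrate embryo, known from the somites and, in mammals, from the meninges. CRISPR libraries held 29.7, 25.9 and 33.8 cpm of its transcripts, and controls held 30.3, 40.6 and 37.3 cpm. The groups overlapped, since the third CRISPR library lay above the first control. The means were 29.8 ± 3.98 and 36.1 ± 5.25 cpm (SD, n = 3 libraries each). This is a log2 fold change of -0.27 with a 95% interval from -0.62 to 0.08 (adjusted p = 0.492 from edgeR).

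Beside this, 13 of the 15 meningeal and mesenchymal markers tested, of 19 listed, had a positive log2 fold change, with a median of 0.49. Over all 15076 genes tested, 7825 were positive and the median was 0.01. Of these 15 markers, 8 had positive values at an unadjusted p under 0.05 from edgeR, where 6.79% of all genes did. After adjustment 0 passed by edgeR. DESeq2 called 3 higher, and over all genes with an adjusted p it called 2.04% in either direction. The summed level of the markers was 273 to 457 cpm in CRISPR libraries and 227 to 285 cpm in controls, and these ranges overlapped. The sum was led by the transporter gene *slc6a13* and the matrix gene *bgn*. *aldh1a2* thus had the opposite sign to most of these markers. Of the 12 skeletal muscle markers tested, of 16 listed, 10 were negative, as *aldh1a2* was, and 2 positive. At an unadjusted p under 0.05 from edgeR 8 of the 12 were lower, where 6.14% of all genes were. Their sum, like the level of *aldh1a2*, was highest in control replicate 2. The part of either set of cells in the level of *aldh1a2* was not tested.

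*aldh1a3*, a synthesis enzyme known from the ventral retina and olfactory region, was at 5.25, 8.02 and 5.86 cpm in the CRISPR libraries and at 7.15, 6.19 and 7.61 cpm in the controls. The highest value of all 6 lay in CRISPR replicate 2, so the groups overlapped fully. Its log2 fold change was -0.13 (interval -0.63 to 0.38, adjusted p = 0.859 from edgeR). The 13 gene models of the eye and lens list, with no row for *rho*, summed to 163 to 272 cpm in CRISPR and 192 to 216 cpm in control libraries, ranges that overlap as those of *aldh1a3* do.

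The Cyp26 enzymes clear retinoic acid, and *cyp26a1* is itself a textbook target that retinoic acid switches on. Its level was 4.80, 6.54 and 4.64 cpm in CRISPR libraries and 6.63, 10.1 and 6.66 cpm in controls. The CRISPR values all lay below the control values, by a margin of 0.086 cpm between CRISPR replicate 2 and control replicate 1. The underlying counts were 137, 150 and 99 against 228, 244 and 63. The fitted log2 fold change was -0.56 (interval -1.11 to -0.003, SE 0.25), and edgeR gave an adjusted p of 0.384. Without control replicate 2, its highest library, the value was -0.32 (adjusted p = 0.769).

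*cyp26b1*, known for guarding hindbrain and skeletal tissue from retinoic acid, was the only member with a positive log2 fold change. It was at 31.1, 38.8 and 35.8 cpm in CRISPR libraries and at 31.2, 33.1 and 22.0 cpm in controls. The lowest CRISPR library lay just below the first control, and the third control, the shallowest library, was lowest. Its log2 fold change was 0.28 (interval -0.09 to 0.66, adjusted p = 0.51 from edgeR), and 0.13 without control replicate 3.

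*cyp26c1*, which in RefSeq's order of genes (assembly UCB_Xtro_10.0) is the immediate neighbour of *cyp26a1*, was at 27.8, 36.9 and 40.7 cpm in CRISPR libraries and at 44.8, 45.4 and 37.2 cpm in controls. The first and second CRISPR libraries lay below all controls, and the third lay between them. For it the log2 fold change was -0.28 (interval -0.64 to 0.08, adjusted p = 0.498 from edgeR), and -0.14 without CRISPR replicate 1.

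The sum of the Cyp26 genes was 75.7 ± 10.4 cpm in CRISPR and 79.0 ± 11.8 cpm in control libraries (SD, n = 3 each), and the groups overlapped. Shares of counts also follow transcript length, so they are compared between libraries and not between genes. *cyp26b1* took 48.8%, 47.2% and 44.1% of the Cyp26 counts in CRISPR libraries and 37.7%, 37.3% and 33.4% in the controls. *cyp26c1* took 43.6%, 44.9% and 50.1% in CRISPR libraries and 54.2%, 51.2% and 56.5% in controls. *cyp26a1* took 7.53%, 7.95% and 5.72% in CRISPR libraries and 8.03%, 11.4% and 10.1% in controls. For each gene the groups did not overlap, though for *cyp26a1* the nearest values were 7.95% and 8.03%. How often such shares separate in other gene families was not counted. Shares of 1 total move against each other, so these separations are not independent. The mean share of *cyp26b1* was 10.6 percentage points higher in CRISPR libraries. This contrast was picked after its values were seen, and no test was run on it.

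**Figure D2:**
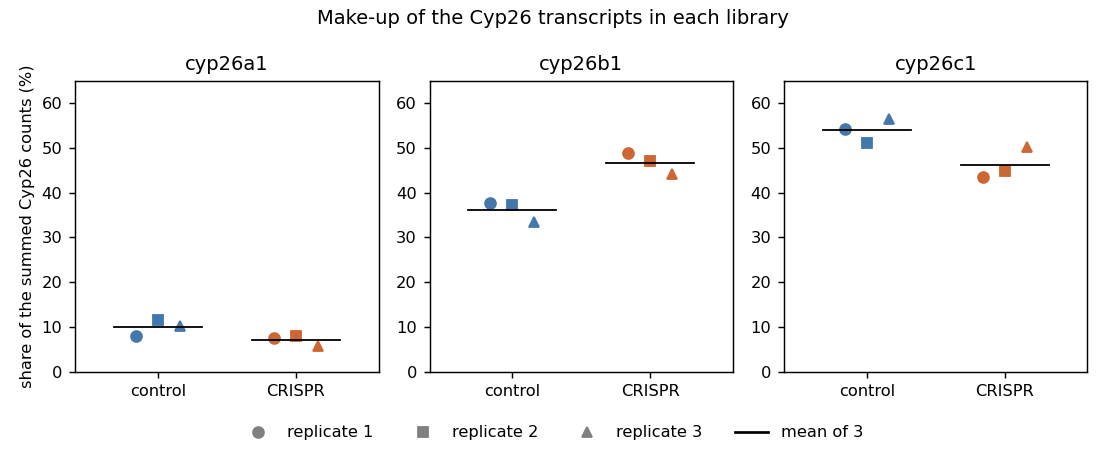
Share of *cyp26a1*, *cyp26b1* and *cyp26c1* in the summed raw counts of the Cyp26 genes (vertical axis, percent) in each control and *dyrk1a* CRISPR library, with a line at the mean of 3. All CRISPR points lie above all control points for *cyp26b1* (44.1% to 48.8% against 33.4% to 37.7%). They lie below them for *cyp26c1* and, narrowly, for *cyp26a1*.

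*crabp2* encodes a small cytoplasmic protein that carries retinoic acid to its receptors. It was at 64.4, 79.9 and 57.5 cpm in CRISPR libraries and at 75.0, 74.7 and 67.2 cpm in controls. The CRISPR libraries held both the highest and the lowest value. Its log2 fold change was -0.11 (interval -0.40 to 0.19, adjusted p = 0.785 from edgeR), the smallest among the 8 genes.

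Of the receptors, *rara*, which is widely expressed in embryos, was at 12.6, 12.6 and 11.6 cpm in CRISPR libraries and at 9.77, 16.9 and 13.5 cpm in controls. The controls spanned the CRISPR values on both sides. Its log2 fold change was -0.13 (interval -0.59 to 0.34, adjusted p = 0.843 from edgeR), and without control replicate 2 it was 0.09.

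*rarb*, a receptor gene that retinoic acid itself induces in many vertebrate tissues, had the smallest p of the 8. CRISPR libraries gave 22.09, 18.75 and 17.50 cpm and controls 22.12, 28.69 and 26.30 cpm. The groups did not overlap, but the highest CRISPR library and the lowest control were almost equal. The means were 19.4 ± 2.37 and 25.7 ± 3.33 cpm (SD, n = 3 each), a log2 fold change of -0.40 with a 95% interval from -0.75 to -0.05. After adjustment p was 0.341 by edgeR and 0.279 by DESeq2. Leaving out each library gave log2 fold changes from -0.51 to -0.31, and the unadjusted p of 0.0305 from edgeR became 0.115 without control replicate 2.

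Across the members, control replicate 2 held the highest value for 5 of 8 genes and the lowest for 0, and it was also the library with the highest muscle marker sum, whose part in these levels was not tested. CRISPR replicate 2 held the highest value for the other 3. The same counts over all genes tested were not made, so these are not shown to be particular to the members. The spread between libraries was widest for *cyp26a1*, whose highest library was 2.18-fold above its lowest, and narrowest for *crabp2*, at 1.39-fold. Among all tested genes with a symbol, the profiles closest to *cyp26a1* over the 6 libraries were those of *cnp*, *avpr1a* and *plcd4*. Their mean-centred log2(cpm + 1) values differed from those of *cyp26a1* by a root mean square of 0.0519, 0.0594 and 0.0910. Of these, the vasopressin receptor gene *avpr1a* was at 23.3, 29.9 and 20.9 cpm in CRISPR libraries and at 31.1, 44.1 and 33.0 cpm in controls. *cnp* was low, at 1.26, 1.74 and 1.03 cpm in CRISPR libraries and at 1.98, 2.99 and 1.80 cpm in controls. At such levels the 1 added to cpm shrinks log2 differences, so the place of *cnp* depends on that scale. The closest of so many genes must lie near, so the likeness is a description only.

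Of 34 further retinoid pathway symbols, 23 were tested. None passed by edgeR or DESeq2, which called 0.00663% and 2.04% of the genes they gave an adjusted p. Of the 23, 14 had a positive and 9 a negative log2 fold change, with a median of 0.07 beside 0.01 over all genes tested. The list does not hold *rbp4*, which carries retinol in plasma. That gene, also a choroid plexus marker, was at 892, 532 and 793 cpm in CRISPR libraries and 346, 222 and 313 cpm in controls, all CRISPR libraries above all controls. The fitted log2 fold change was 1.33, with an adjusted p of 0.0696 by edgeR and 9.58e-08 by DESeq2. Within the list, at an unadjusted p under 0.05 from edgeR, 1 of 23 was higher and 1 lower, beside 6.79% and 6.14% of all genes tested. For the same 2 genes all CRISPR libraries lay above or below all controls, as they did for 9.13% and 9.72% of all genes. These 2 genes are therefore described without being set apart from genes in general. *dhrs3* encodes a reductase that turns retinal back into retinol and so limits synthesis. Its level was 74.9, 65.5 and 84.4 cpm in CRISPR libraries and 60.4, 60.7 and 60.7 cpm in controls. All CRISPR libraries lay above the tightly grouped controls, a log2 fold change of 0.31 (SE 0.12) with an adjusted p of 0.329 from edgeR. *stra6* encodes the membrane receptor through which cells take up retinol, and it was at 15.7, 11.3 and 14.1 cpm in CRISPR libraries and at 17.01, 18.02 and 19.1 cpm in controls. All CRISPR libraries lay below all controls, a log2 fold change of -0.39 (SE 0.17) with an adjusted p of 0.364 from edgeR.

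Among the other enzymes, *rdh10*, which oxidizes retinol to retinal, had a log2 fold change of -0.18 (interval -0.66 to 0.29). *aldh1a1*, a synthesis enzyme of the dorsal retina, had one of 0.35, with an interval from -0.38 to 1.09 that reaches past a log2 value of 1. The largest negative values were -0.51 for *rdh16*, a retinol dehydrogenase gene at 2.22 ± 0.556 against 3.18 ± 0.891 cpm, and -0.49 for *bco1*, which cleaves carotene into retinal.

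The Rxr partners of the receptors gave log2 fold changes of 0.32 for *rxra* (interval -0.65 to 1.29), 0.14 for *rxrb* (interval -0.12 to 0.40) and -0.29 for *rxrg* (interval -0.69 to 0.10). *rxrb* was measured most closely, at 105.6 ± 7.92 cpm in CRISPR and 96.0 ± 10.97 cpm in control libraries (SD, n = 3 each). *rxra* had a level of 2.67 ± 0.459 against 2.02 ± 1.41 cpm, and its controls ran from 1.06 to 3.63 cpm.

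**Figure D3:**
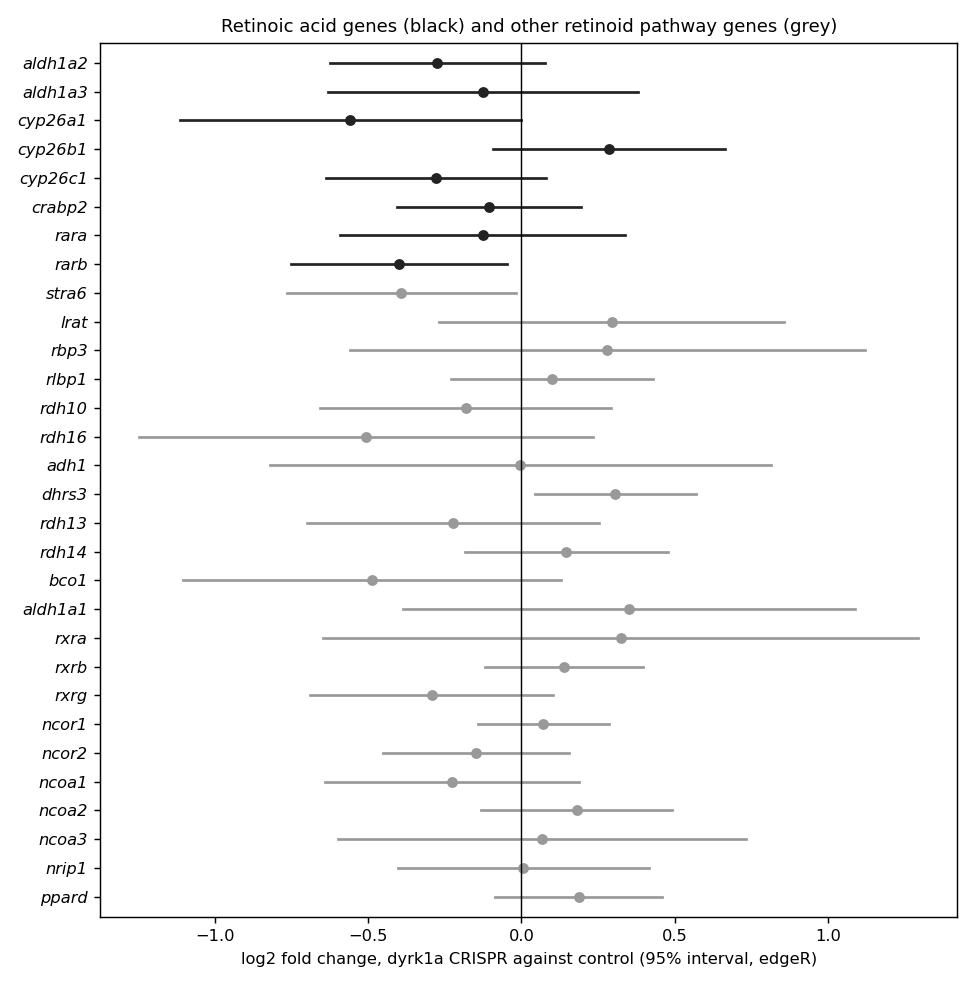
Log2 fold change between *dyrk1a* CRISPR and control libraries (horizontal axis) with its 95% interval from edgeR, for the 8 retinoic acid genes (black) and 22 other retinoid pathway genes (grey). The intervals of *cyp26a1*, *rarb* and *stra6* lie below 0 and that of *dhrs3* above it, and none of these genes passed after adjustment.

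Of 32 listed targets of retinoic acid, a list from background knowledge, 25 gene models were tested. By edgeR 0 passed, while DESeq2 called 1 lower and 0 higher. Over all genes with an adjusted p, DESeq2 called 2.04% in either direction. The median log2 fold change was -0.01, with 10 positive and 15 negative, beside 7251 negative of 15076 genes tested. At an unadjusted p under 0.05 from edgeR there were 3 lower and 0 higher, where 6.14% and 6.79% of all genes were. These 3 were Hox genes, which give cells their position along the body axis. *hoxc4* was at 26.9, 30.6 and 23.7 cpm in CRISPR libraries and at 49.7, 47.8 and 34.6 cpm in controls, with no overlap between the groups. Its log2 fold change was -0.71 (SE 0.17), and the adjusted p was 0.127 by edgeR but 0.00739 by DESeq2. *hoxa5*, without overlap between the groups, and *hoxb5*, with overlap, had log2 fold changes of -0.99 and -0.79 (adjusted p = 0.182 and 0.344 from edgeR).

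Among all Hox genes of the lists used here, those of groups 1 to 3, which pattern the hindbrain, had log2 fold changes between -0.18 and 0.16. Of these 6 genes 3 were negative and 0 had an unadjusted p under 0.05. Of groups 4 to 6, expressed in the caudal hindbrain and spinal cord, 7 genes were tested. One of them, *hoxc6*, is set apart below because of how it passed the filter. All the others were negative, from -1.11 to -0.34. Of these, *hoxc4*, *hoxa5*, *hoxb5* and *hoxc5* were lower at an unadjusted p under 0.05 from edgeR, and the rest were not. Over all 15076 genes tested, 7251 were negative and 6.14% were lower at that p. The lists were chosen with earlier results of these data known, and no test was run on this split by group. The genes *hoxc5* and *hoxc6*, named here after their values were seen, had log2 fold changes of -1.11 and -3.07. For *hoxc5* the adjusted p was 0.0931 from edgeR and 0.00011 from DESeq2. *hoxc6* was near the floor, at 0.35, 0.17 and 0.42 cpm in CRISPR libraries (10, 4 and 9 counts). Its controls were at 1.40, 3.82 and 2.96 cpm, and it passed the filter of 1 cpm in 3 libraries through them alone. A gene that enters this way can only be lower in CRISPR libraries, so its value is a description only. The 12 Hox markers tested of 19 listed, led by *hoxb3* and *hoxd3*, summed to 223 to 298 cpm in CRISPR and 273 to 352 cpm in control libraries. How much spinal cord each dissection held was not measured, and the part of tissue makeup in *rarb*, *cyp26a1* and these Hox genes was not tested. The largest positive log2 fold changes on the target list were 0.54 for *tgm2*, a transglutaminase gene (interval -0.29 to 1.37), and 0.21 for *meis3*, a partner of Hox proteins (interval -0.04 to 0.46).

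**Figure D4:**
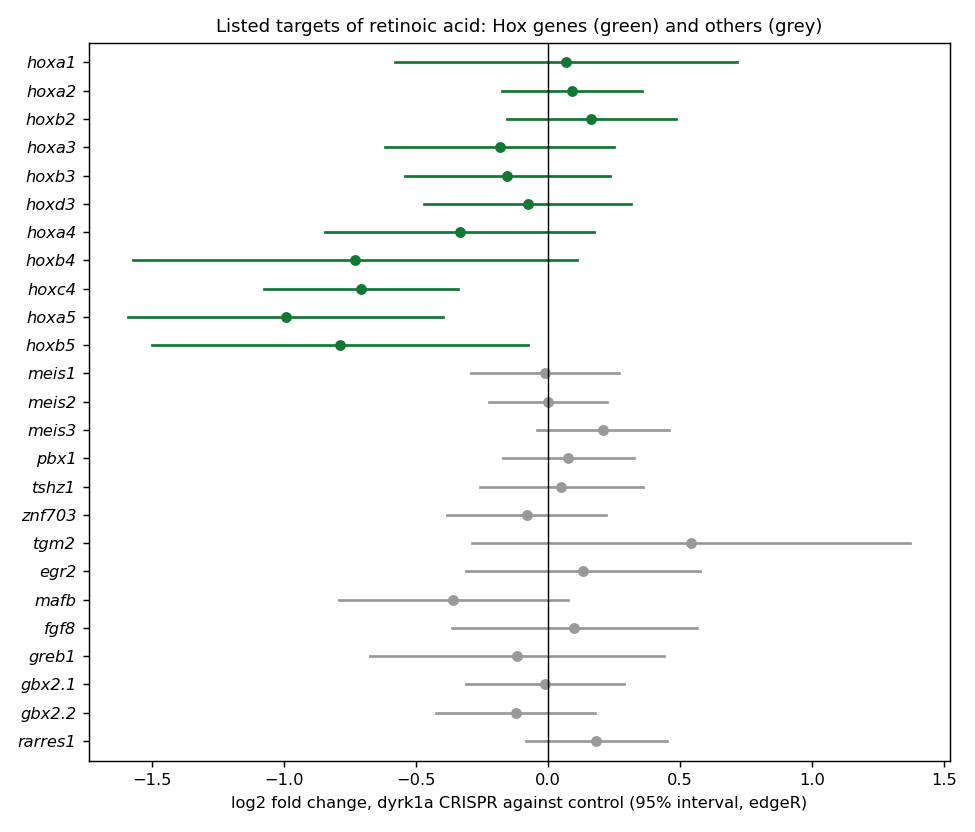
Log2 fold change between *dyrk1a* CRISPR and control libraries (horizontal axis) with its 95% interval from edgeR, for 25 listed targets of retinoic acid. Hox genes (green) are ordered by group, and the intervals of *hoxc4*, *hoxa5* and *hoxb5* lie below 0. Those of all other Hox genes shown, of group 4 as well as groups 1 to 3, include 0.

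Receptor genes of this family use more than 1 promoter in vertebrates, which yields isoforms with different starts, so the counts per exon bin were also compared. A bin is an exon or part of one, and its share is its count in percent of all bin counts of the gene. The 8 genes hold 74 bins. By edgeR's exon usage test 0 of 74 passed, where 0% of 214537 bins passed, and 1 of 74 had an unadjusted p under 0.05, where 1.07% of all bins did. The share lay above all controls in every CRISPR library for 4 of 74 bins, beside 4.28% of all bins, and below for 1 of 74, beside 4.74%.

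The bin with the smallest p was the last numbered bin of *rarb*, bin 8. It took 5.49%, 6.38% and 4.17% of *rarb* bin counts in CRISPR libraries and 1.77%, 2.74% and 4.27% in the controls. The third CRISPR library lay just below the third control, so the groups overlapped. The counts were 54, 42 and 24 against 21, 30 and 16. CRISPR replicate 3, at 24 counts, lay below control replicate 2, at 30. The bin's counts are not scaled for depth, and its 16 counts in control replicate 3 came from the shallowest library. Its log2 usage difference was 0.68 with an unadjusted p of 0.00758 and an adjusted p of 1 from edgeR, and without control replicate 1 it was 0.48 (unadjusted p = 0.0828). The other 7 bins of *rarb* overlapped between the groups, and the largest, bin 1, took 42.9% ± 1.71 against 43.8% ± 2.08 (SD, n = 3 each). The second smallest p belonged to bin 5 of *cyp26c1*, which held 2, 0 and 3 counts against 1, 0 and 0.

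For *rara*, bins 2, 3 and 4 of 10 had higher shares in every CRISPR library than in any control. Bin 2 took 7.95% ± 0.362 against 6.41% ± 0.422 (SD, n = 3 each), and 0 of these 3 bins, named after their values were seen, had an unadjusted p under 0.05. Neighbouring bins share read pairs and are not independent. Positions and lengths of the bins were not used here, so which exon or promoter each bin stands for was not determined.

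**Figure D5:**
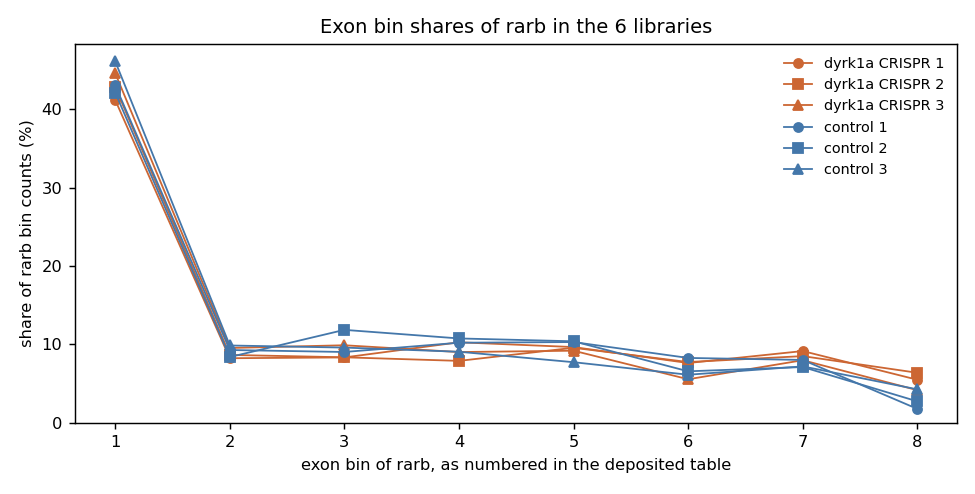
Share of each of the 8 exon bins of *rarb* in the bin counts of the gene (vertical axis, percent, from 0) by bin number (horizontal axis), with 1 line per library, *dyrk1a* CRISPR in orange and control in blue. The lines of both groups cross over bins 1 to 7, and at bin 8 they run from 1.77% to 6.38%.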

How the data were processed

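Brain RNA of 3 *dyrk1a* CRISPR and 3 control pools was compared. Reads were unstranded pairs of 150 bases. The authors aligned them to the XenBase v9.1 genome (STAR v2.7.3). The authors deposited raw counts for gene models and, through DEXSeq of unstated version, for exon bins. The log2 values that the authors deposited on 15079 lines equal log2(cpm + 1) of these counts. Counts outside exons (5.02% to 5.62% per library) and ambiguous counts stayed out of exon tests. The study's low-level filter was kept, above 1 cpm in 3 or more libraries, and edgeR 4.0.16 in R 4.3.3 tested the remaining genes by quasi-likelihood on TMM-scaled libraries with no covariate. P-values were adjusted by Benjamini and Hochberg over all genes and reflect the spread between pools of separate animals. Levels are cpm on TMM-scaled library sizes. Exon usage was tested with diffSpliceDGE in gene models with at least 5 counts. Scripts were tested on simulated data. With 3 libraries against 3, an exact permutation test cannot give p under 0.1.

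The members and gene lists were chosen with earlier results of these data known. Named genes are all members, listed pathway and target genes with an unadjusted p under 0.05 or the 2 largest values in each direction, 6 fixed pathway genes (the Rxr genes, *rdh10*, *dhrs3* and *aldh1a1*), the 3 closest profiles and the 2 exon bins with the smallest p. A pathway gene under this rule is counted in its list but not reported here. Marker lists are given where they stand beside a result, some with their 2 most abundant genes and others by sums only. The gene test was repeated with DESeq2 1.42.0, with limma 3.58.1 (voom, or the deposited log2 values), with RLE or upper-quartile scaling, without a filter, with filterByExpr, with replicate number as a block, and without each library. The exon test was repeated with limma's diffSplice, in bins with at least 10 counts, with the block, and without each library. A symbol matches itself or itself with a point and number. Reads of overlapping genes on opposite strands cannot be told apart. No sequence was used.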

Additional observations from a re-analysis of the deposited data

How the results depend on the processing

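Of the 8 retinoic acid genes, 0 passed under any of 14 alternatives by edgeR, DESeq2 or limma, leaving out each library included (range 0 to 0). Of the 74 exon bins, 0 passed under 9 alternatives (range 0 to 0). Over all bins limma's diffSplice called 1 of 214537 and the other exon alternatives called 0, so this says little about these genes. The study's own DEXSeq test, which reported sites of differential exon usage, was not repeated. The direction held for 7 of 8 genes under all 14. *rara* turned to 0.088 without control replicate 2. The log2 fold change ran from -0.73 to -0.32 for *cyp26a1* and from -0.51 to -0.31 for *rarb* when each library was left out. In the same refits it ran from -0.38 to -0.18 for *aldh1a2*, -0.33 to -0.0079 for *aldh1a3*, 0.13 to 0.39 for *cyp26b1*, -0.40 to -0.14 for *cyp26c1* and -0.25 to -0.0050 for *crabp2*. Other genes that moved by over 1.5 times included *rxra* (0.07 to 1.11), *tgm2* (0.20 to 0.99) and *hoxb5* (-1.14 to -0.47). The unadjusted p reached 0.138 for *stra6* without CRISPR replicate 2 and 0.101 for *dhrs3* without CRISPR replicate 3. All 14 further genes named kept their direction, and *hoxc4* passed with DESeq2 (adjusted p = 0.00739) and without a filter (adjusted p = 0.0416 from edgeR). Among the members 0 to 3 had an unadjusted p under 0.05, with 0 without control replicate 2 and 3 without control replicate 1. Over all genes edgeR called 0 higher and 1 lower, DESeq2 173 and 122, and edgeR with no filter 120 and 60. The replicate number as a block (paired design) gave 0 of 8 members and 2 genes higher and 1 lower. Deviations of same-numbered libraries from their group means correlated at -0.125, 0.281 and -0.06, and those of differently numbered libraries at -0.368 to 0.38. Deviations within a group sum to 0, so these values are not independent. They cannot show whether the numbers pair the libraries. For genes as low as *cyp26a1*, depth limits precision most in control replicate 3, with 63 counts.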
